A study of Mus musculus with 4 samples.

Results

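The Kruppel-like factors described here were Klf2, Klf3, Klf4, Klf6, Klf9, Klf10, Klf11, Klf13, Klf15 and Klf16, 10 of 31829 named genes or transcripts on a whole mouse genome oligonucleotide array. They were taken by gene name, with every probe of each gene: 8 genes had 1 probe, and Klf9 and Klf13 had 2 each, which gave 12 probes. All 12 passed the filter on dim probes, 10 of them in both conditions and 2 (Klf11 and the dimmer Klf9 probe) through the fasted livers alone. The array carried 7 other Kruppel-like factor genes, which are counted with the SP family further on.

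Transcript levels were compared in liver between mice that had been fasted for 24 h and mice that had been fasted for 24 h and then given food again for 2 h. All animals were male mice, 8 to 12 weeks old, of the strain written as C57/Bl6 in the sample labels and C57BL/6J in the protocol, and both groups had been through the same fast. RNA of 4 fasted and 4 refed livers, 1 animal each, was read on 4 two-colour arrays. Each array held 1 fasted and 1 refed liver, with the fasted liver in the red dye Cy5 on replicates 1 and 2 and in the green dye Cy3 on replicates 3 and 4. Each value below is, unless a level is named, a log2 ratio of fasted over refed liver with the dye orientation turned, so that positive values are higher in the fasted liver. Whole liver was used, so that fewer cells of a type and less RNA per cell cannot be told apart.

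Kruppel-like factors are transcription factors that bind GC-rich and CACCC elements through zinc fingers at the end of the protein, while their divergent front parts recruit either activators or repressors such as Sin3a and CtBP. Several of them respond quickly to hormones and growth factors. In liver the family is known for links to gluconeogenesis, amino acid breakdown and lipid metabolism, and glucocorticoids, glucagon and insulin, which all change with feeding, act on some of its genes.

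Arrays had median spot intensities of 40 to 75 in red and 44 to 96 in green, over a local background of 25 to 35 and of 20 to 33. The test covered 19719 probes that passed the filter, out of 39429. Calls needed both an adjusted p below 0.10 (limma across all kept probes, Benjamini-Hochberg) and a 1.5-fold change, the limits of the study. At these limits 335 probes (1.7%) were higher and 410 (2.08%) lower in the fasted liver. With median centring in place of loess the split was 230 higher and 635 lower. Precision is limited by there being 4 arrays.

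Among the Kruppel-like factors, 1 of 12 probes rose in the fasted liver and 0 fell, against backgrounds of 1.7% and 2.08%. The probe was the brighter of the pair for Klf9. The mean was positive for 10 of 12 probes and for 8 of the 10 that were well above background in both conditions, beside 49.8% of all kept probes. With median centring it was positive for 7 of 12, and the share over all kept probes was not computed for that setting. The median ratio was 0.10 over the 12 probes and -0.0010 over all kept probes. The 12 take in Klf11 and the dimmer Klf9 probe, kept through the fasted livers alone, so that this median lends no support to a rise of the family. The spread between arrays was wide for this family: the median SD of its ratios was 0.36, against 0.18 over all kept probes, and 2 of 12 probes kept one sign on all 4 arrays, against 29.6% of all kept probes. The plot of ratios by array shows both the mean of each probe and how far its 4 arrays lay apart.

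**Figure D1:**
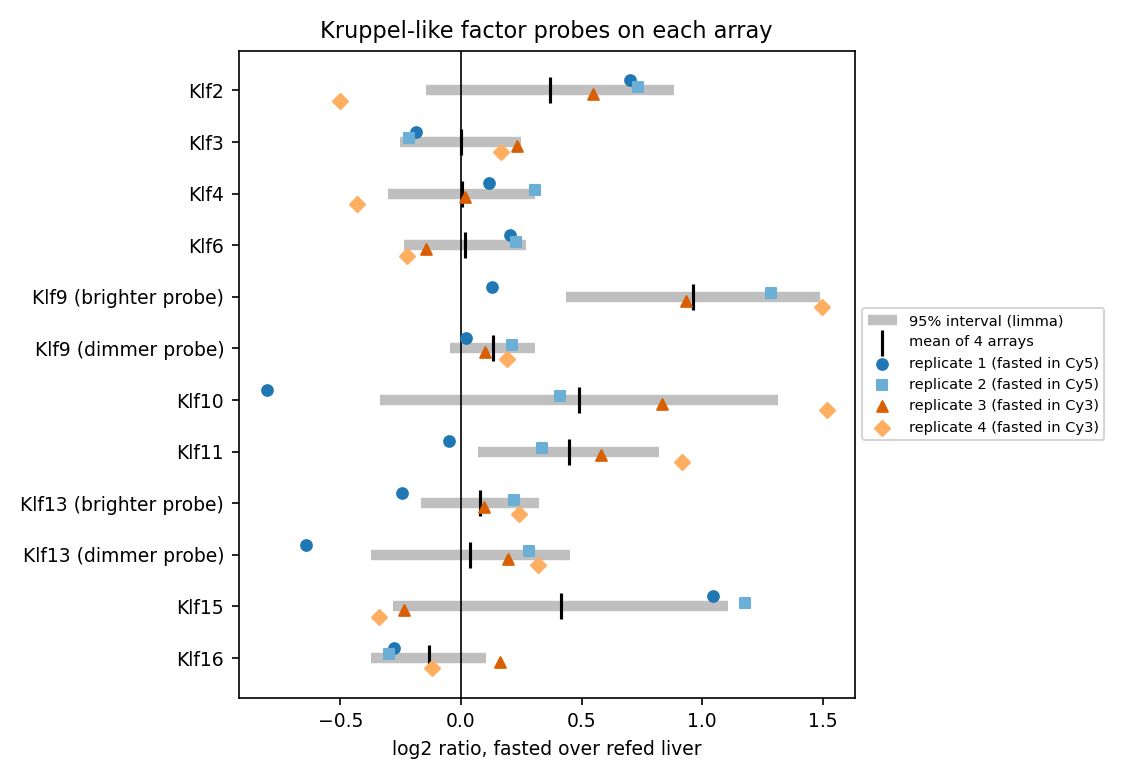
Log2 ratio of fasted over refed liver for each of the 12 Kruppel-like factor probes on each of 4 arrays; blue symbols are arrays with the fasted liver in Cy5 and orange symbols arrays with it in Cy3, black bars are means and grey bars the 95% interval from limma. The interval of the brighter Klf9 probe runs from 0.44 to 1.49, while Klf10 and Klf15 have arrays on both sides of 0.

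Klf9, a factor whose gene is induced by glucocorticoids and thyroid hormone in several tissues, was the member with the highest mean. Its brighter probe, at chr19:23240410-23240469 in the mm9 build, gave ratios of 0.13, 1.29, 0.93 and 1.498 on replicates 1 to 4. All 4 were positive, and replicate 1 lay far below the others. The mean was 0.96 ± 0.60 (SD, n = 4 arrays), a 1.95-fold higher signal in the fasted liver with an adjusted p of 0.0592 in limma, and it exceeded that of 99.4% of kept probes. Without replicate 1 the mean was 1.24.

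The normalised log2 level of that probe was 11.31, 11.27, 11.38 and 11.51 in the 4 fasted livers and 11.18, 9.98, 10.45 and 10.01 in the refed livers. The fasted livers were close together, with an SD of 0.10, and the spread lay in the refed livers, with an SD of 0.56. The refed liver of replicate 1 was almost as high as the fasted livers. Even so, every fasted liver stood above every refed liver, which was so for 1 of 12 Kruppel-like factor probes and for 5.8% of all kept probes.

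The other Klf9 probe, at chr19:23243231-23243290, read a dim signal that was well above background in all 4 fasted livers and in 3 of 4 refed livers. Its ratios were 0.02, 0.21, 0.10 and 0.19, with a mean of 0.13 ± 0.09 (SD, n = 4) and an adjusted p of 0.374 in limma. Both Klf9 probes were positive on all 4 arrays, and 29.6% of all kept probes had one sign on all 4. Both had their lowest ratio on replicate 1, but the probes differed in the size of the ratio, by an amount that changed with the processing: the dimmer probe was at 0.37 with plain subtraction and at 0.65 with the scanner software's signals, beside 0.99 and 1.02 for the brighter one. The dimmer probe passed the filter through the fasted livers, where it was higher, so that neither its sign nor its p-values lend support. The probes cite different transcript records, and which transcripts each probe detects was not analysed here.

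The call of Klf9 was lost with normexp fitted on all spots (0.59, adjusted p = 0.558 in limma), with median centring (0.82, adjusted p = 0.111), and without replicate 2, 3 or 4 (0.78 to 0.97, adjusted p = 0.166 to 0.182). With a term for the dye in the model it was kept, with an adjusted p of 0.0232.

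**Figure D2:**
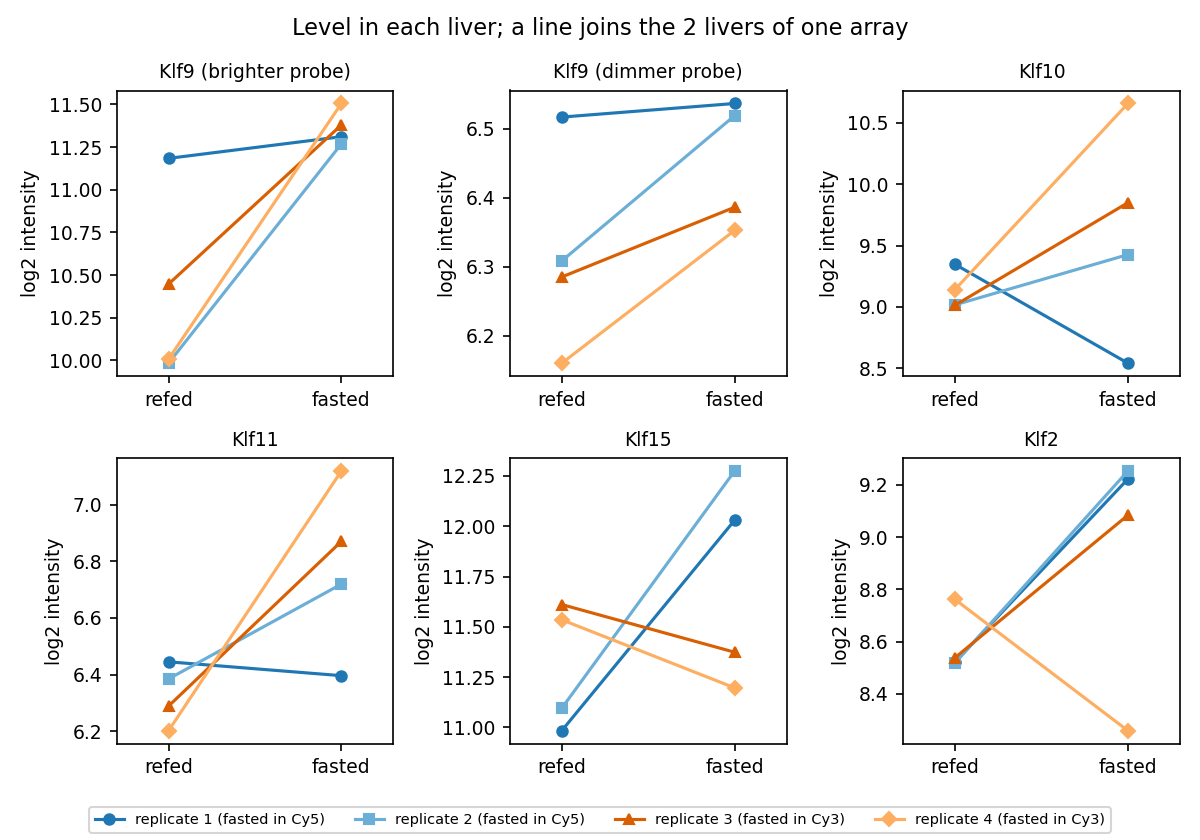
Normalised log2 intensity of 6 probes in each refed (left) and fasted (right) liver, with a line joining the livers of one array; the vertical axes differ between panels and do not start at 0. For the brighter Klf9 probe the fasted livers lie between 11.27 and 11.51 and the refed livers between 9.98 and 11.18, while for Klf15 the lines of replicates 1 and 2 rise and those of replicates 3 and 4 fall.

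Klf15 promotes amino acid breakdown and gluconeogenesis in liver and is known as a gene of the fasted state. Its probe, at chr6:90425144-90425203 in mm9, gave ratios of 1.05, 1.18, -0.24 and -0.34 on replicates 1 to 4. The arrays split by dye: the fasted liver was the higher one where it carried Cy5 and the lower one where it carried Cy3. The mean over all 4 was 0.41 ± 0.81 (SD, n = 4; adjusted p = 0.480 in limma), with a 95% interval from -0.28 to 1.11.

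Tested as a second term, the dye effect of Klf15 was 0.70 (adjusted p = 0.00586 in limma), larger in size than that of 99.2% of kept probes. The mean was 1.11 over the arrays with the fasted liver in Cy5 and -0.29 over those with it in Cy3. With the dye term in the model the difference between fasted and refed liver had the same mean of 0.41 with an adjusted p of 0.00943, short of the limit of 1.5-fold. The level lay between 11.20 and 12.27 in fasted and between 10.98 and 11.61 in refed livers, so that the groups overlapped. Each dye orientation held its own livers, and a dye effect and a difference between those livers cannot be told apart. Klf15 kept a positive mean under each of 19 alternatives, from 0.16 to 0.66.

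Klf10 and Klf11 are the TGF-beta inducible early genes of the family, and both proteins recruit the Sin3a co-repressor. Klf10 is also tied to the circadian clock and to glucose metabolism in liver. Its probe, at chr15:38224255-38224314 in mm9, gave ratios of -0.81, 0.41, 0.84 and 1.52. Replicate 1 was negative and the others were positive. The mean was 0.49 ± 0.98 (SD, n = 4; adjusted p = 0.483 in limma), an SD above that of 99.4% of kept probes.

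The levels show where the spread of Klf10 lay. They were 8.54, 9.43, 9.85 and 10.66 in the fasted livers of replicates 1 to 4 and 9.35, 9.02, 9.01 and 9.14 in the refed livers. The SD over the refed livers was thus 0.16, near the median of 0.15 over all kept probes. Fasted livers differed by more than 2 log2 units, with the lowest below all refed livers and the other fasted livers above all of them. This is the opposite of Klf9, whose spread was in the refed livers. Leaving out replicate 1 raised the mean of Klf10 to 0.92 with an adjusted p of 0.0790 in limma, past both limits, whereas leaving out replicate 4 lowered it to 0.15 (adjusted p = 0.870) and normexp on all spots to 0.01 (adjusted p = 0.982).

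Klf11 had ratios of -0.05, 0.33, 0.58 and 0.92 at chr12:25347324-25347383 in mm9. As for Klf10, replicate 1 was the only negative array and replicate 4 the highest. The mean was 0.45 ± 0.41 (SD, n = 4; adjusted p = 0.161 in limma). The probe was dim and passed the filter through the fasted livers, where it was higher, so that its p-values lend no support: it was well above background in all 4 fasted livers and in 2 of 4 refed livers, with levels of 6.40 to 7.12 and 6.20 to 6.44. Those ranges overlapped by the fasted liver of replicate 1 only. The mean passed both limits without replicate 1 (0.61, adjusted p = 0.0692), with the signals as processed by the scanner software (1.59, adjusted p = 0.0571) and with the ratios normalised by the authors (0.66, adjusted p = 0.0758). It was lower without replicate 4 (0.29, adjusted p = 0.389 in limma) and with normexp on all spots (0.08, adjusted p = 0.639).

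Dye means differed in the same sense for Klf10 (-0.20 with the fasted liver in Cy5, 1.18 in Cy3) and Klf11 (0.14 and 0.75), with dye effects of -0.69 (adjusted p = 0.106 in limma) and -0.30 (adjusted p = 0.107) that missed the limit. With the dye term the adjusted p of Klf11 was 0.0249 at the same mean of 0.45, under the fold limit, and that of Klf10 was 0.169.

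Klf2, Klf4 and Klf6 are factors of vascular and stress responses: Klf2 maintains the quiescent state of endothelium, Klf4 acts in epithelium and endothelium and in pluripotent cells, and Klf6 is an early response gene of tissue injury. Klf2, at chr8:74845137-74845196 in mm9, gave ratios of 0.70, 0.74, 0.55 and -0.50. Here replicate 4 opposed the other arrays. The mean was 0.37 ± 0.59 (SD, n = 4; adjusted p = 0.387 in limma). Levels lay between 8.26 and 9.25 in fasted and between 8.52 and 8.76 in refed livers, and the lowest of all was the fasted liver of replicate 4. Without replicate 4 the mean was 0.66 with an adjusted p of 0.0452, past both limits.

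Markers of sinusoidal endothelium, the cells in which Klf2 is best known, were read beside it. All 8 of 8 listed markers were kept and 0 were called, with a median ratio of 0.14. Their mean ratio was 0.21, 0.20, 0.04 and 0.24 on replicates 1 to 4, and their summed level was 13.40 to 13.53 in fasted and 13.18 to 13.34 in refed livers. The markers thus had no low value on replicate 4, the array on which Klf2 was negative, and their part in the Klf2 values was not tested.

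Klf4 and Klf6 had means near 0. For Klf4, at chr4:55540167-55540226 in mm9, the ratios were 0.12, 0.31, 0.02 and -0.43, with a mean of 0.0026 ± 0.31 (SD, n = 4; adjusted p = 0.993 in limma). The 95% interval, from -0.30 to 0.31, does not reach a change of 1.5-fold in either direction. For Klf6, at chr13:5869371-5869430, the ratios were 0.20, 0.23, -0.14 and -0.23, with a mean of 0.02 ± 0.23 (SD, n = 4; adjusted p = 0.953). As for Klf15, the sign of Klf6 followed the dye, with a dye effect of 0.20 (adjusted p = 0.0936 in limma).

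Klf3, Klf13 and Klf16 are known as repressors, Klf3 through CtBP and the others through Sin3a. Klf3, at chr5:65221309-65221368 in mm9, had ratios of -0.18, -0.22, 0.23 and 0.17 and a mean of -0.0011 ± 0.23 (SD, n = 4; adjusted p = 0.996 in limma). Its sign also followed the dye, in the sense opposite to Klf15, with a dye effect of -0.20 (adjusted p = 0.0933). Klf16, at chr10:80030074-80030133, gave -0.28, -0.30, 0.16 and -0.12, with a mean of -0.13 ± 0.21 (SD, n = 4; adjusted p = 0.508). It was the only member apart from Klf3 with a negative mean, and it was negative on 3 of 4 arrays.

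The pair of probes for Klf13 had means of 0.08 ± 0.22 (SD, n = 4; adjusted p = 0.734 in limma) for the brighter one, at chr7:71082854-71082913, and 0.04 ± 0.46 (SD, n = 4; adjusted p = 0.932) for the dimmer one, at chr7:71032482-71032541. On replicates 1 to 4 the brighter probe gave -0.24, 0.22, 0.10 and 0.24 and the dimmer one -0.64, 0.28, 0.20 and 0.32. Both were negative on replicate 1 and positive on the other arrays. The dimmer probe is listed on the strand opposite to the Klf13 gene, as the only one of 10 member probes whose gene strand was known, so that its signal may not be Klf13 messenger RNA and is reported under the gene name of the file. For Klf3, Klf4, Klf6, Klf16 and both Klf13 probes the whole 95% interval lay within 1.5-fold of no change with this background correction, and the mean of the dim Klf16 probe moved to -0.39 with plain subtraction or the scanner software's signals.

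**Figure D3:**
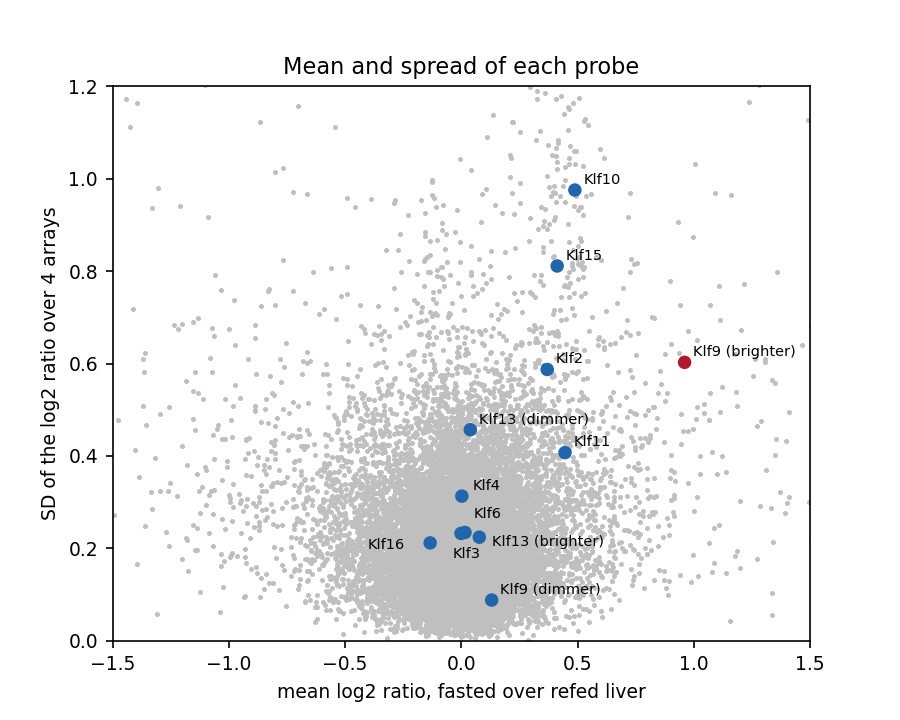
Mean (horizontal) and SD (vertical) of the log2 ratio over 4 arrays for the 12 Kruppel-like factor probes, in red where called and blue where not, over all kept probes in grey; probes beyond the axes are not drawn. Klf10, with an SD of 0.98, Klf15, with 0.81, the brighter Klf9 probe, with 0.60, and Klf2, with 0.59, have the widest spread, and the dimmer Klf9 probe, with 0.09, the narrowest.

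The arrays were compared by how often each held the lowest or highest ratio of a probe. Replicate 1 gave the lowest ratio for 6 of 12 member probes and the highest for 0, while over all kept probes it gave the lowest for 25.8% and the highest for 26.5%. Both Klf9 probes and both Klf13 probes were among those 6, so that these genes count more than once. Replicate 4 gave the lowest for 4 of 12 and the highest for 5 of 12 (27.3% and 27.2% of all kept probes). Replicate 2 gave the lowest for 2 and the highest for 5 (25.96% and 24.9%). Replicate 3 was never the lowest, against 21.0% of all kept probes. The spread was larger over the fasted than over the refed livers for 8 of 12 member probes, against 44.8% of all kept probes, with a median SD of the level of 0.25 in fasted and 0.13 in refed livers (0.14 and 0.15 over all kept probes). The brighter Klf9 probe was among the 4 of 12 that went the other way.

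Several members differed between the dye orientations, which also held different livers. A dye effect at an adjusted p under 0.10 was found for 3 of 12 member probes (Klf3, Klf6 and Klf15), against 14.8% of all kept probes, and the median size of the dye effect was 0.21 over the member probes and 0.11 over all kept probes. For 4 of 12 member probes (Klf2, Klf4, Klf6 and Klf15) both ratios with the fasted liver in Cy5 lay above both with it in Cy3, and for 4 others (Klf3, Klf10, Klf11 and Klf16) both lay below, against 29.9% and 29.5% of all kept probes. With the dye term 381 probes of the array were higher and 445 lower, and the brighter Klf9 probe was again the only called member probe.

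**Figure D4:**
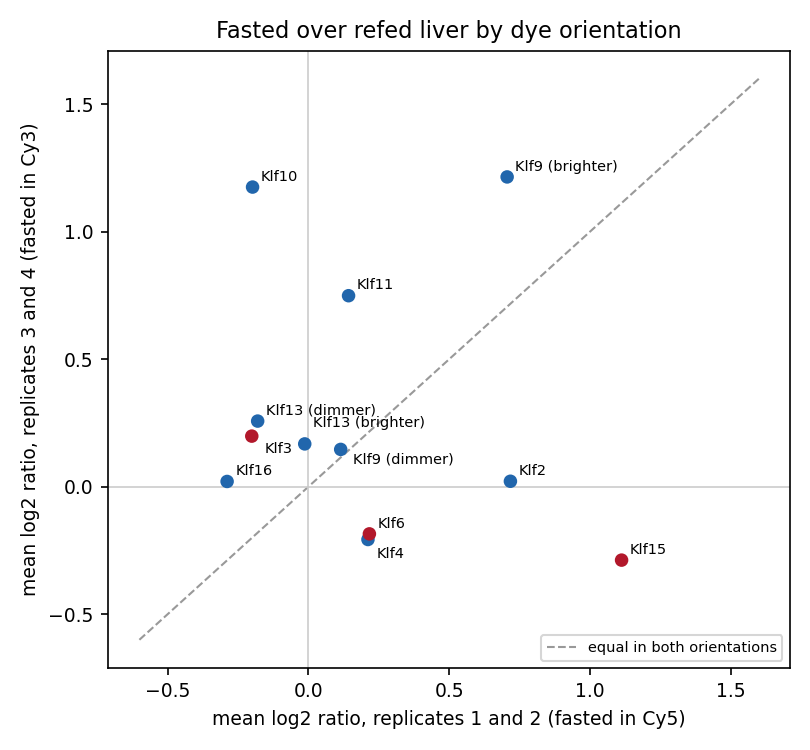
Mean log2 ratio of fasted over refed liver on the arrays with the fasted liver in Cy5 (horizontal) against that on the arrays with it in Cy3 (vertical), for each of the 12 member probes; red marks a dye effect at an adjusted p under 0.10 and the dashed line equal values. The brighter Klf9 probe is high in both, at 0.71 and 1.22, while Klf15, at 1.11 and -0.29, and Klf10, at -0.20 and 1.18, are high in one.

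CREB, the factor at the centre of the study, binds the cAMP response element and its short form TGACG, so promoters of the members were searched for these letters and for other motifs of fasting and of the family. RefSeq promoter windows of the GRCm38.p6 build were used for 8 of 10 members, without Klf10 and Klf16, over the 250 bases before the start of the gene. The upstream sequences of the called gene Klf9, of Klf15, with the highest number of TGACG matches, and of Klf11, with none, are shown 5′ to 3′ on the strand of the gene, with TGACG, or CGTCA where it lies on the opposite strand, in capitals. They lie at chr19:23140976-23141225, chr6:90462326-90462575 and chr12:24651121-24651370, all on the plus strand.
Klf9: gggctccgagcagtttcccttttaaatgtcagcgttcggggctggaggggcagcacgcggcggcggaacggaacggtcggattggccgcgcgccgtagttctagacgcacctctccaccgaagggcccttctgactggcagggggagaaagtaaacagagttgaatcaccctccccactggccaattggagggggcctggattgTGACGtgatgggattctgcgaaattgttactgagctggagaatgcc
Klf15: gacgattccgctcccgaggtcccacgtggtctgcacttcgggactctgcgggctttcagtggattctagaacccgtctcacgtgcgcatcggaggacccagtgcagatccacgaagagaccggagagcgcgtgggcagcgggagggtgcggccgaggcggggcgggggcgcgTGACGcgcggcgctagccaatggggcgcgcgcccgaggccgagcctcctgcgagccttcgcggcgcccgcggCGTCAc
Klf11: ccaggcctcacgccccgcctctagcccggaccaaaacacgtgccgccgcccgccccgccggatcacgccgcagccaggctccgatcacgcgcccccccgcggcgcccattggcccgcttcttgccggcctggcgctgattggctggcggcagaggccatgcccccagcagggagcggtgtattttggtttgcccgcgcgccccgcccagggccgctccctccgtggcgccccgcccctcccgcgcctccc

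Klf9 held 1 TGACG, from position -46 to -42 before the start, and Klf15 held 2, at -78 to -74 and, on the opposite strand, at -6 to -2. TGACG was present in 5 of 8 member windows (Klf2, Klf4, Klf9, Klf13 and Klf15) and in 17.8% of 32851 windows of the same length, counting both strands. The full element TGACGTCA, which contains the short form, was in 0 of 8 member windows and 1.55% of all windows as an exact match. The study counted a full element with up to 1 mismatch, in sequence around measured CREB binding sites rather than in promoter windows. With that allowance, applied to the windows here after the exact matches had been seen, the full element was in 4 of 8 member windows and 10.6% of all windows. These were TGACGTGA in Klf9, at -46 to -39 over its TGACG, TGACGTCG in Klf13, TGGCGTCA in Klf4 and TGACATCA in Klf6, while Klf15 and Klf11 had none. The called Klf9 and 4 uncalled genes thus carried the short form, and Klf3, Klf6 and Klf11 did not.

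Among the other motifs, searched on both strands, the E-box CACGTG was in 4 of 8 windows (Klf4, Klf6, Klf11 and Klf15; 6.02% of all windows) and the GC box GGGCGG in 7 of 8 (32.7%), with Klf9 the exception. The family's own CACCC element was in 5 of 8 (52.0%). TGTTCT, 1 arm of the glucocorticoid receptor element, was in 0 of 8 (16.1%); the full element was not searched. TATAAA was in 0 of 8 (12.4%). The windows were GC-rich, from 59.6% in Klf9 to 78.4% in Klf3, against a median of 52.4% over all windows. A match is a description of letters, not of binding, and a missing match says nothing of sites elsewhere.

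Genes around the family were counted by list, each gene by its brightest kept probe. Of the other Kruppel-like and SP factors 8 of 16 were kept and 0 were called, with a median of 0.06. Of the KLF co-regulators (Sin3a, CtBP, histone deacetylases, acetyltransferases and ubiquitin ligases) 11 of 12 were kept and 0 were called, with a median of 0.07. TGF-beta signalling, which induces Klf10 and Klf11, had 13 of 13 kept and 0 called, with a median of -0.02. For these lists the medians were near that of all kept probes, -0.0010.

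Lists of hormone and amino acid metabolism held calls. In amino acid breakdown, where Klf15 acts, 2 of 11 kept genes were higher and 0 lower (1.7% and 2.08% of all kept probes), with a median of 0.56, and 1 was called without replicate 1, 0 without replicate 2 or 3 and 4 without replicate 4. Got1, the cytosolic aspartate aminotransferase, rose by 1.58 ± 0.82 (SD, n = 4; adjusted p = 0.0339 in limma) and Tat, tyrosine aminotransferase, by 0.84 ± 0.46 (adjusted p = 0.0451). The list mean was 0.65, 0.83, 0.37 and 0.04 on replicates 1 to 4. This was the same order of arrays as for Klf15, though the list mean was positive on the arrays where Klf15 was negative as well. A link between the list and Klf15 was not tested. Of the glucocorticoid response genes 3 of 7 were higher and 0 lower, again beside 1.7% and 2.08%, with a median of 0.52, and 1 was called without replicate 3. They were Zbtb16, a transcriptional repressor, at 1.91 ± 0.89 (SD, n = 4; adjusted p = 0.0256 in limma), Errfi1, an inhibitor of the EGF receptor, at 1.18 ± 0.54 (adjusted p = 0.0269) and Sgk1, a hormone-induced kinase, at 0.90 ± 0.64 (adjusted p = 0.0782). The glucocorticoid list mean was 0.78, 1.16, 0.48 and 0.59 on replicates 1 to 4, but its called genes differed in which array was lowest. Zbtb16 gave 0.78, 1.96, 1.97 and 2.95, lowest on replicate 1 and highest on replicate 4 as the brighter Klf9 probe was, whereas Sgk1 was lowest on replicate 4, at 0.16, and Errfi1 on replicate 3, at 0.79.

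Markers of cell types were read for the tissue label and for other cells. All 6 of 6 hepatocyte markers were kept, with 1 called higher (Tat, which is also on the amino acid list). Their median ratio was 0.33, and their mean was 0.37, 0.61, 0.18 and 0.06 on replicates 1 to 4, in the same order of arrays as the amino acid list. Of Kupffer cell, stellate cell, bile duct and leukocyte markers 5 of 5, 5 of 6, 3 of 5 and 2 of 4 were kept and 0 were called. The mean of the Kupffer cell markers was 0.51, -0.25, 0.57 and -0.22 on replicates 1 to 4, and their summed level 13.00 to 13.60 in fasted and 12.45 to 13.40 in refed livers. Pancreatic acinar markers had 3 of 6 kept and 0 called, with a list mean of 0.04, -0.06, -3.93 and 0.03 on replicates 1 to 4. Their summed level reached 14.07 in the refed liver of replicate 3 and was 8.77 to 9.96 in fasted livers. None of the 12 member probes had its lowest ratio on that array, and the part of these markers in the values was not tested.

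Processing moved the members by different amounts, as the plot of all alternatives shows. Klf9, Klf2, Klf10, Klf11 and Klf15 stayed above 0 and Klf16 below 0 wherever they were recomputed, whereas Klf3, Klf4, Klf6 and Klf13 crossed 0 under at least 1 setting without being called. Klf10 ranged from 0.01 to 0.92 and Klf2 from 0.25 to 0.66.

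**Figure D5:**
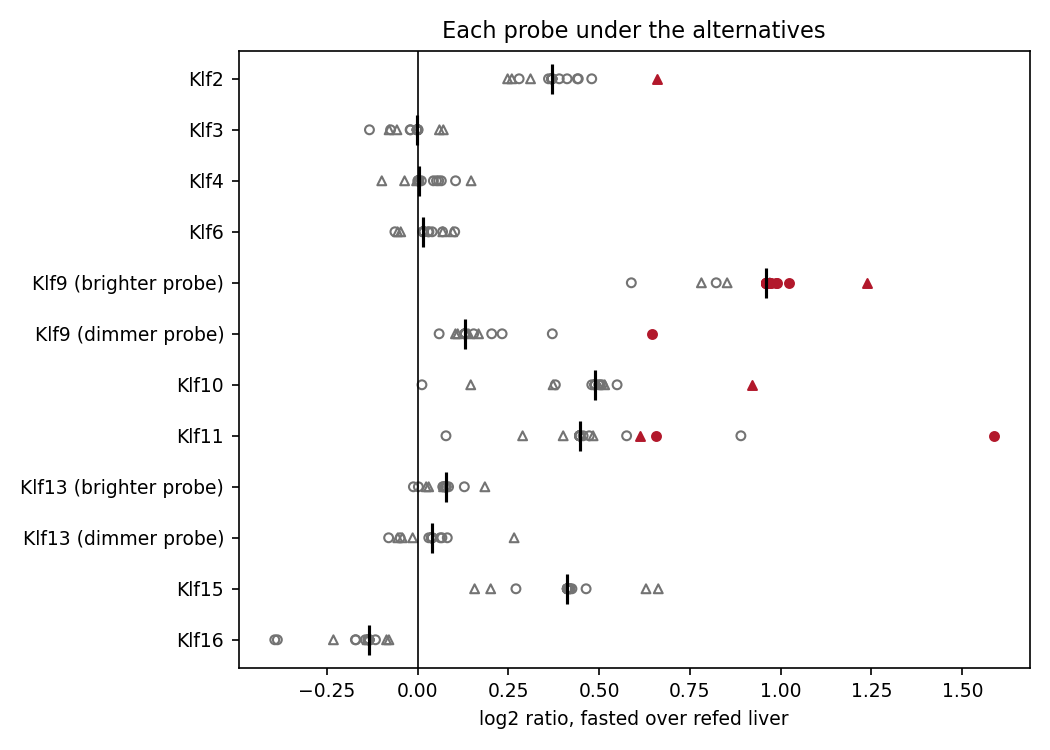
Log2 ratio of fasted over refed liver of each member probe under the alternatives in processing (circles) and with each replicate left out (triangles), in red where the probe was called; black bars are the values given above. The brighter Klf9 probe ranges from 0.59 to 1.24 and Klf15 from 0.16 to 0.66, all above 0, while Klf11 ranges from 0.08 to 1.59.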

How the data were processed

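RNA of 4 fasted and 4 refed livers was compared on 4 two-colour arrays with a dye swap. The authors labelled 200 ng of RNA per liver and deposited scanner files with raw intensity per spot, and a table of log2 ratios normalised by loess in limma, which served as an alternative and was matched to spots by row number. Members and gene lists were chosen with earlier results of these data known.

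Limma 3.58.1 under R 4.3.3 was applied to the median signals. Spots with a local background above 3 times the median of the array (55 of 177588) were left out, a limit adopted in that earlier work after the data had been seen. The background was corrected by normexp with offset 50, control spots got weight 0, ratios were normalised by loess within arrays and spots with outlier flags were left out. A probe was kept if well above background in all 4 livers of at least 1 condition. Differences were tested by lmFit and eBayes across all kept probes, two-sided, with Benjamini-Hochberg adjustment. Levels were scaled between arrays with Aquantile. The steps were tested on simulated data. Named genes are all members and, of each list, up to 4 called genes, with Klf12, Ctgf and Tgfbr1 named besides. Where 2 probes measured a gene, the brighter one has the higher mean intensity. Probe coordinates are those of the files (mm9). Alternatives covered background, signal source, normalisation, filter, test, thresholds and replicates; the study's SAM was rebuilt with 16 sign flips, and separate channels used statmod 1.5.0.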

Additional observations from a re-analysis of the deposited data

Results flagged for a closer look

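Replicate 4 stood apart for Klf2, at -0.50 against 0.55 to 0.74 elsewhere, with a gap that took up 0.847 of the whole range. The dimmer Klf13 probe stood at -0.64 on replicate 1, against 0.20 to 0.32 elsewhere (0.872 of the range). The mean of the TGF-beta signalling list reached 0.27 on replicate 2, against -0.0066 to 0.02 elsewhere (0.910). A single gene of that list, Ctgf, was at 3.23 on replicate 2, where the next highest, Tgfbr1, was at 0.49. The list mean is therefore no measure of the pathway as a whole on that array. The mean of the pancreatic acinar markers fell to -3.93 on replicate 3, against -0.06 to 0.04 elsewhere (0.974). These 4 stood apart among 24 probes and lists by Dixon's criterion for 4 values, and chance marks about 1 in 20.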

How the results depend on the processing

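The number of Kruppel-like factor genes called higher was 1. It was 0 with normexp on all spots, with median centring, at a limit of 2-fold and where every probe of a gene had to pass, 2 with the scanner software's signals and 2 with the authors' log2 ratios (Klf9 and Klf11 in both), and from 0 to 3 with 1 replicate left out (3 without replicate 1: Klf9, Klf10 and Klf11; 0 without replicate 2 or 3; 1, Klf2, without replicate 4). Klf11 passed the filter through the fasted livers alone, and its calls lend no support. The brighter Klf9 probe kept its direction under all 19 alternatives and its call under 14, with an adjusted p from 0.0144 to 0.558. Signs turned only where the mean was near 0 and uncalled. With normexp on all spots the dimmer Klf13 probe was at -0.080. With median centring it was at -0.048, the brighter one at -0.012 and Klf6 at -0.062. Klf3 was at 0.00021 with plain subtraction and 0.0014 with the software's signals. With 1 replicate left out, the range was -0.078 to 0.071 for Klf3, -0.099 to 0.15 for Klf4, -0.055 to 0.097 for Klf6 and -0.054 to 0.27 for the dimmer Klf13 probe. Klf2, Klf10, Klf11, Klf15 and Klf16 kept their direction throughout.

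With no fold limit 1 other Kruppel-like or SP factor (Klf12, 0.46) and 2 TGF-beta genes were called. With 1 replicate left out, calls ranged from 0 to 1 for the co-regulators, from 0 to 4 for amino acid breakdown (0 without replicate 2 or 3, 1 without replicate 1, 4 without replicate 4) and from 1 to 3 for the glucocorticoid response (1 without replicate 3). Over all probes, 335 higher and 410 lower calls became 5 and 15 with normexp on all spots, 549 and 714 with plain subtraction, 685 and 904 with the software's signals, 230 and 635 with median centring, 935 and 1208 with no fold limit, 99 and 132 at 2-fold, and 208 and 256 without replicate 3. The test on ratios within arrays is already paired by array, and a fit of separate channels with the array as a random effect gave 342 and 415. Apart from the changed limits and the number of arrays, the causes were not tested. Klf11, a dim probe, ranged from 0.08 to 1.59 over 18 alternatives.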
